A study of Mus musculus with 16 samples.

Results

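Cadherins and protocadherins are membrane proteins whose extracellular repeats bind the same or related proteins on a neighbouring cell in the presence of calcium. The genes were taken by name from the count table of an RNA sequencing experiment on mouse islets: protein-coding genes whose symbol was Cdh followed by a digit or began with Pcdh, except the endothelial gene Cdh5, with 10 counts or more in at least 4 libraries. This left 75 of 92 protein-coding candidates, among 52636 genes in the table. They comprised 4 type I classical cadherins (Cdh1, Cdh2, Cdh3 and Cdh4), 8 type II classical cadherins (Cdh7, Cdh8, Cdh9, Cdh10, Cdh11, Cdh18, Cdh22 and Cdh24), and 4 other cadherins (Cdh13, Cdh17, Cdh23 and Pcdh15). The protocadherins outside the clusters were 8 (Pcdh1, Pcdh7, Pcdh8, Pcdh9, Pcdh10, Pcdh11x, Pcdh12 and Pcdh17), and the clusters gave 51 genes (10 alpha, 21 beta and 20 gamma). Just inside the rule were Pcdhb3, Pcdhb8 and Cdh17, with 10 counts in 4 libraries, and just outside it were Cdh6, Cdh19 and Cdh20, with 10 counts in 3. Also left out were Cdh12, Cdh15, Cdh16, Cdh26, Pcdh18, Pcdh19, Pcdh20, Pcdha4, Pcdha6, Pcdha7, Pcdhb2, a second gene named Pcdha11, and Pcdhga10, which had 0 counts in every library. With both strands considered, exons of other genes cover every exon base of Pcdhga10, so its 0 need not mean absent transcripts.

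Islets of 12 weeks old male mice were used, of a strain that the labels name C57BL/6JRj and the study's methods C57BL/6NRj. For each library, 500 islets of several mice were pooled and cultured with human serum over 10 days. Islets were left unexposed (control), or exposed to 50 pg/mL IL-1β, to 0.2 mM sodium butyrate, or to both, with 4 independent experiments per condition and thus 16 libraries. IL-1β is an inflammatory cytokine that acts on beta cells mainly through the transcription factor NF-κB, and butyrate, a fatty acid made by gut bacteria, inhibits histone deacetylases. A library held between 18635943 and 25955943 counts (median 22184715). A replicate is an experiment on pooled islets, not an animal, and in whole islets a smaller share of a cell type and less RNA per cell cannot be told apart. Ins1 and Ins2, the insulin genes that define beta cells, stood at 51510 ± 3030 and 145100 ± 7860 CPM (counts scaled to library sizes of 1e+06; mean ± SD, n = 4) in control islets, as the label of the tissue has it.

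Classical cadherins join cells by binding to their own kind and hold on to the actin skeleton through catenins. In islets, E-cadherin (Cdh1) and N-cadherin (Cdh2) link the endocrine cells to each other. The clustered protocadherins lie in 3 neighbouring arrays on chromosome 18, and each gene has its own promoter and a large exon for the extracellular part. Transcripts of the alpha and gamma arrays are spliced to constant exons that all genes of the array share, whereas beta genes have no constant exons. In neurons each cell transcribes its own selection of these genes, which gives cells an identity on their surface, and CTCF and cohesin bring the chosen promoters to distant enhancers. Beta cells share many transcripts with neurons.

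The levels of these genes in control islets covered a wide range, from Cdh1 at 82.1 ± 4.98 to Pcdh11x at 0.0327 CPM per kb of exon not shared with another gene (mean, n = 4, with the SD for Cdh1). Cdh2 came next with 14.98 ± 1.04, followed by Pcdh1 with 13.5 ± 0.234, and the lowest control library of Cdh2 (14.3) was above the highest of Pcdh1 (13.8). Pcdh1, a protocadherin of epithelia, was followed by Cdh8, a type II cadherin known from synapses, at 10.1 ± 0.391 CPM per kb. Below these stood the gamma gene Pcdhga5 (5.88 ± 0.516) and Cdh22 (4.73 ± 0.713), whose control libraries overlapped. Ranks 7 to 11 were held by the gamma genes Pcdhgb6, Pcdhga8, Pcdhga6, Pcdhgc4 and Pcdhga7. The length used for alpha and gamma genes leaves out the constant exons, so their place in this order depends on reads of those exons not having been counted for single genes. Only exons of other genes on the same strand were taken off, although the libraries were unstranded. For Pcdhgc3 this left 3380 bases, against 1821 with both strands considered, so which gamma genes hold these ranks depends on that choice.

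**Figure D1:**
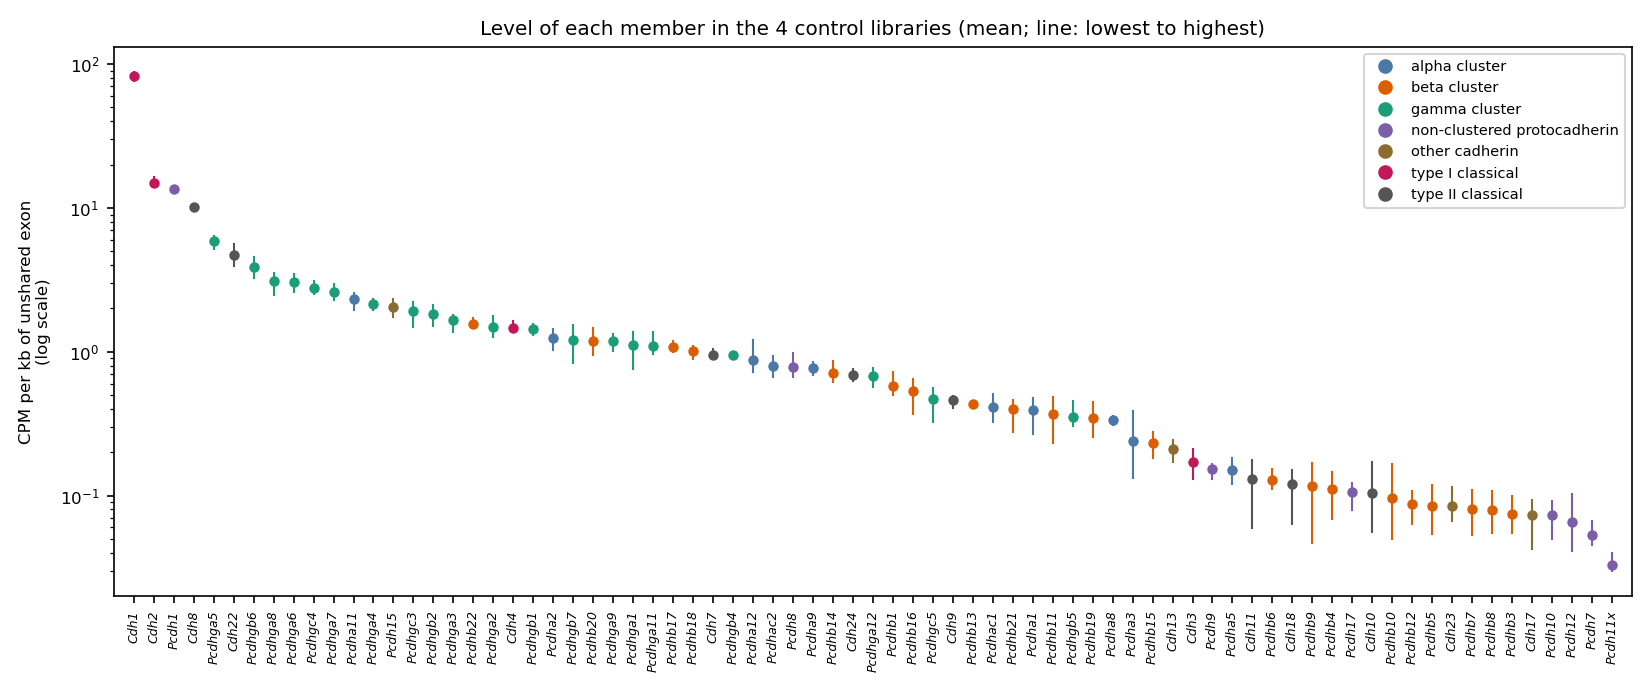
Each point is the mean level of 1 gene in the 4 control libraries, in CPM per kb of exon that no other gene shares on the same strand, on a log scale; lines run from the lowest to the highest library and colours mark the family. Cdh1 stands at 82.1, above Cdh2 at 14.98 and Pcdh1 at 13.5, and the lowest gene is Pcdh11x at 0.0327.

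Of the 75 genes, 72 passed the filter on low counts and entered the test (edgeR, quasi-likelihood; calls required p under 0.01 after Benjamini-Hochberg adjustment over all 18587 genes tested). Pcdh11x (2 to 20 counts in a library), Pcdh12 (4 to 14 counts) and Cdh17, an intestinal cadherin (4 to 11 counts), did not pass it. IL-1β called 15 of the 72 (20.8%), 10 higher and 5 lower, against 17.8% of all genes tested (11.2% higher and 6.59% lower). The control and IL-1β libraries did not overlap in 17 of the 72, where this held for 24.7% of all genes. In the presence of butyrate, IL-1β called 12 of 72 (9 higher, 3 lower), against 14.8% of all genes (9.92% higher and 4.86% lower), with no overlap in 20 members against 24.2% of all genes. The shares of members called by IL-1β were thus near those of all genes. Butyrate called fewer members, 4 of 72 (1 higher, 3 lower) against 19.9% of all genes (8.53% higher, 11.4% lower). With IL-1β present, butyrate called 6 of 72 (3 higher, 3 lower; 3 in all without replicate 3 of the combination) against 19.5% of all genes (8.41% higher, 11.1% lower). Groups did not overlap in 9 members for butyrate alone (30.1% of all genes) and in 10 with IL-1β present (26.9%). In all, 21 genes were called in at least 1 of the 4 comparisons and 51 in none. These comparisons share libraries, so they are not independent of each other. Most genes named below were picked by a call together with groups that did not overlap in that comparison. Lack of overlap there is therefore no added support for the call.

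Among the classical cadherins, Cdh1, the E-cadherin gene of epithelial junctions (chromosome 8, 106603351 to 106670246, GRCm38), was raised by butyrate and not called under IL-1β. Its level in the 4 control libraries was 403, 376, 375 and 348 CPM, and in the IL-1β libraries 397, 411, 394 and 396 CPM. With butyrate alone it was 482, 523, 442 and 459 CPM, and with both agents 520, 486, 483 and 469 CPM. Every library with butyrate was above every library without it. Butyrate raised Cdh1 1.27-fold without IL-1β (log2 fold change 0.34, SE 0.0522, adjusted p = 1.1e-05) and 1.22-fold with it (0.29, SE 0.0521, adjusted p = 9.72e-05). For IL-1β the log2 fold changes were 0.09 (adjusted p = 0.217) and, with butyrate, 0.04 (adjusted p = 0.682). The N-cadherin gene Cdh2 was called in no comparison, with 121 ± 8.40 CPM in control, 122 ± 3.08 with IL-1β, 118 ± 8.17 with both and 115 ± 10.7 with butyrate (mean ± SD, n = 4).

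Cdh4, the R-cadherin gene (chromosome 2, 179442431 to 179899373), had its highest level where both agents were present. Control libraries gave 10.1, 9.97, 11.9 and 10.5 CPM and butyrate libraries 11.4, 12.2, 13.4 and 13.98 CPM. With IL-1β the values were 11.6, 12.5, 17.1 and 18.1 CPM, and with both agents 18.4, 19.1, 21.2 and 25.8 CPM. The IL-1β libraries were spread widely and overlapped with control, whereas the libraries with both agents lay above all others. IL-1β raised Cdh4 1.65-fold in the presence of butyrate (log2 fold change 0.72, SE 0.134, adjusted p = 0.000631). Without butyrate the log2 fold change of IL-1β was 0.49 (SE 0.141) and missed the threshold (adjusted p = 0.0153, between 1.01e-07 and 0.0494 over 25 alternatives, 7 of which called it). The rise on adding butyrate to IL-1β (0.50, SE 0.131, adjusted p = 0.00852) was lost in 13 of 25 alternatives (adjusted p up to 0.0501). Among these, the call was lost without control replicate 1, 2 or 4, IL-1β replicate 1 or 2, combined replicate 2, 3 or 4, or butyrate replicate 2, 3 or 4, with adjusted p between 0.0101 and 0.0323. The fourth type I gene, Cdh3 (P-cadherin), had 5 to 31 counts in a library and was not called in any comparison.

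Cdh8 (chromosome 8, 99024471 to 99416471, minus strand) was the member that was called in all 4 comparisons, and it fell each time. Its levels were 75.8, 76.1, 80.3 and 81.9 CPM in control, 61.9, 61.3, 57.1 and 60.9 CPM with IL-1β, and 61.7, 60.0, 58.5 and 59.8 CPM with butyrate. In the libraries with both agents they were 44.0, 43.1, 39.9 and 40.5 CPM. The 3 levels were separate, with control on top, either agent alone in the middle and both agents at the bottom, and the ranges of IL-1β and butyrate alone overlapped. Cdh8 fell by 0.38 on the log2 scale with IL-1β (SE 0.0454, adjusted p = 2.12e-07) and by 0.52 when butyrate was present (SE 0.0470, adjusted p = 1.78e-09). With butyrate it fell by 0.39 (SE 0.0455, adjusted p = 2.44e-07), and by 0.53 when IL-1β was present (SE 0.0469, adjusted p = 2.81e-09). The difference between the butyrate effects was -0.14 (SE 0.0653, adjusted p = 0.662) and was not called. All other type II genes were called in no comparison. Cdh22 and Cdh7, the next in level, had 17.5 ± 2.64 and 9.56 ± 0.719 CPM in control and 15.9 ± 1.74 and 10.7 ± 1.25 CPM with IL-1β (mean ± SD, n = 4). Cdh9, Cdh10, Cdh11, Cdh18 and Cdh24 had 4 to 68 counts in a library.

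Pcdh8, a protocadherin that is induced by activity in neurons (chromosome 14, 79766775 to 79771312, minus strand), showed the largest fall with IL-1β among the tested members. Control libraries had 4.43, 3.21, 3.54 and 3.04 CPM, and butyrate libraries 2.86, 3.11, 2.72 and 2.97 CPM. With IL-1β these values were 1.03, 1.27, 1.503 and 1.59 CPM, and with both agents 0.975, 1.10, 1.18 and 1.35 CPM. No library with IL-1β reached the lowest library without it. Pcdh8 fell by 1.38 on the log2 scale (SE 0.169, adjusted p = 3.34e-07), to 0.385 of the control level, and by 1.34 in the presence of butyrate (SE 0.177, adjusted p = 1.24e-06). Butyrate alone gave a log2 fold change of -0.28 (adjusted p = 0.179).

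Pcdh15, which forms the tip link of hair cells together with Cdh23 (chromosome 10, 73099342 to 74649737), was also lower with IL-1β. Its control libraries gave 55.1, 49.3, 49.5 and 41.5 CPM and the IL-1β libraries 39.4, 28.3, 36.6 and 31.5 CPM. With both agents the levels were 36.8, 32.1, 33.9 and 26.6 CPM, and with butyrate 49.5, 50.5, 40.4 and 43.6 CPM. Libraries with and without IL-1β did not overlap. It fell by 0.53 (SE 0.121, adjusted p = 0.00428) without butyrate and by 0.51 (SE 0.121, adjusted p = 0.00682) with it, and both calls were sensitive to single libraries. The first was lost without control replicate 1, 2 or 3 or IL-1β replicate 2 or 4 (adjusted p between 0.0131 and 0.0201; 1.05e-05 to 0.0201 over 25 alternatives). The second was lost without control replicate 2 or 3, combined replicate 2, 3 or 4, or butyrate replicate 1, 2 or 4 (adjusted p between 0.0111 and 0.0239; 1.95e-05 to 0.0239 over all). Its partner Cdh23 had 6 to 41 counts in a library and a log2 fold change of -0.77 with IL-1β that was not called (adjusted p = 0.0426).

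Cdh13 (T-cadherin, which is held in the membrane by a lipid anchor and binds adiponectin) and Pcdh9 were low and fell with IL-1β. Cdh13 had 1.91, 2.75, 2.39 and 2.40 CPM in control and 0.465, 1.12, 1.61 and 1.37 CPM with IL-1β. It had 1.26, 0.764, 1.88 and 1.69 CPM with both agents and 1.46, 2.49, 2.09 and 2.24 CPM with butyrate. The control and IL-1β libraries were apart, and those with butyrate overlapped. Cdh13 fell by 1.03 on the log2 scale (SE 0.265, adjusted p = 0.0044, 2.93e-05 to 0.0183 over 24 alternatives). The call was lost without control replicate 2, 3 or 4 or IL-1β replicate 1 or 2, with adjusted p between 0.0113 and 0.0183, and with butyrate present the log2 fold change was -0.58 (adjusted p = 0.127). Pcdh9, named after its values were seen since its average level was under the limit for named genes, had 0.887, 1.13, 1.05 and 1.11 CPM in control and 0.362, 0.243, 0.311 and 0.794 CPM with IL-1β (5 to 22 counts). It fell by 1.20 (SE 0.301, adjusted p = 0.00323, 0.000145 to 0.0175 over 24 alternatives), a call lost without control replicate 2 or 4 or IL-1β replicate 2 or 3 (adjusted p between 0.0105 and 0.0175). Of 10 markers of fibroblasts and stellate cells 2, Acta2 and Pdgfrb, were called lower in the same comparison, against 6.59% of all genes tested. The summed level of the 10 was 10.8 to 20.4 CPM in control and 6.51 to 15.99 CPM with IL-1β, and these ranges overlapped. The part of this in the falls of Cdh13 and Pcdh9 was not tested.

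**Figure D2:**
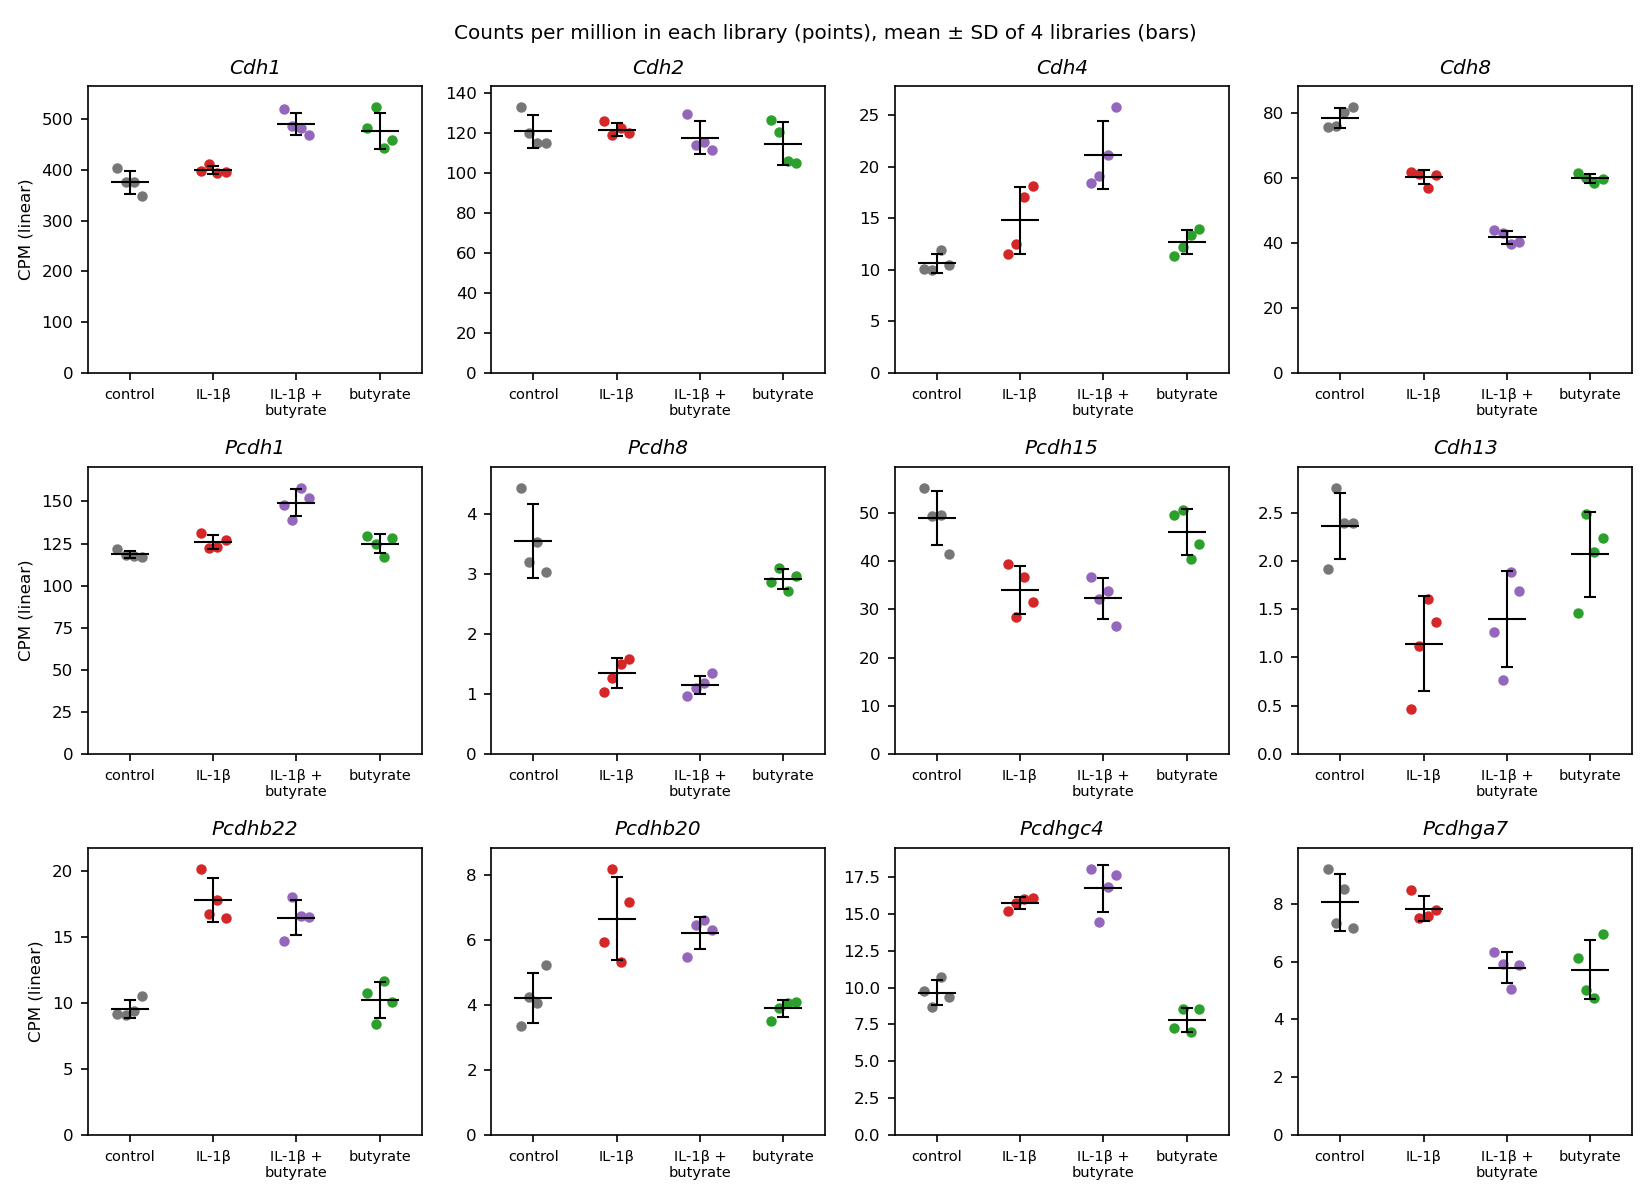
Each panel shows CPM, on a linear axis from 0, of 1 gene in the 4 libraries (points) of each condition, with the mean ± SD (bars). Cdh8 steps down from 78.5 in control to 60.3 with IL-1β and 41.9 with both agents, Cdh1 rises to 476 with butyrate, and Pcdh8 falls from 3.56 to 1.35 with IL-1β.

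RefSeq's table of promoters (GRCm38.p6) held 14 of the members, among them 4 of the 5 genes that fell with IL-1β. The 250 bases before a listed start of these 4 are shown because these are the promoters at hand of genes that moved together. Capitals mark the GC box (GGGCGG) and the TATA box (TATAAA) on either strand. For Pcdh15 the start lies within the gene, which begins at 73099342, so its window is not the one before the first annotated exon.
Cdh8 chr8:99416472-99416721 (minus strand): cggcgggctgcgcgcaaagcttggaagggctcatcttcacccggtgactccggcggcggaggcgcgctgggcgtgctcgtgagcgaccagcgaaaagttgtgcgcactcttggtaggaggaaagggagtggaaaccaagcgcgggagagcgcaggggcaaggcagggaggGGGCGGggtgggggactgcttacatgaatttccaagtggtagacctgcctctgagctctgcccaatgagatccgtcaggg
Pcdh8 chr14:79771313-79771562 (minus strand): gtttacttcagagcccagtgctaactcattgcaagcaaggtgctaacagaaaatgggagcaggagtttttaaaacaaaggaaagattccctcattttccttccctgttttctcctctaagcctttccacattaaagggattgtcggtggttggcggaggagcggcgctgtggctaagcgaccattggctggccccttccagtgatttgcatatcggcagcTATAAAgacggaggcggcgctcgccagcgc
Pcdh15 chr10:73821617-73821866 (plus strand): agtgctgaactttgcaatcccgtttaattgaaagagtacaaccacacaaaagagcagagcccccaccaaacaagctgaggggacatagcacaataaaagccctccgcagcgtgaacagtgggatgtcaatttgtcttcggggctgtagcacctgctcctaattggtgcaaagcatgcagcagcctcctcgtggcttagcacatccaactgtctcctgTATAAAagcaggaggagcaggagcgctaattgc
Pcdh9 chr14:93890680-93890929 (minus strand): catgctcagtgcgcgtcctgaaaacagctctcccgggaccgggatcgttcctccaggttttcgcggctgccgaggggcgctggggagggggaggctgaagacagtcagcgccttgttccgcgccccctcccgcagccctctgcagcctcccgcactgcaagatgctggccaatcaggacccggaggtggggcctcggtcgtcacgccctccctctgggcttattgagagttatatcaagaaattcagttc
Motifs were searched on both strands, and none contains another. A GC box was found in 1 of the 4, that of Cdh8, in 5 of the 14 members and in 32.9% of 27025 promoters. The TATA box was found in 2 of the 4, Pcdh8 and Pcdh15, which were also the 2 of 14 members that held it, against 13% of all promoters. For Pcdh15, the TATA box and the GC content given below belong to the window within the gene. The consensus of NF-κB sites was in 0 of the 4 and in 1 of 14 (Cdh22), against 3.75% of all. This degenerate form replaced a narrower form of the consensus after the result of that form had been seen. TTCAGCACC, part of the element bound by the neuronal repressor REST, was in none of the 4 and in 1 of 14 (Cdh9), against 0.285% of all. Over the 250 bases the GC content was 64.4% for Cdh8, 63.6% for Pcdh9, 51.2% for Pcdh8 and 50.4% for Pcdh15, where the median of all promoters was 52.0%. These matches are a description of the letters in these windows.

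In the clusters, the calls with IL-1β against control lay in the beta array and at the end of the gamma array. The summed level of the 21 beta genes was 45.4 ± 3.66 CPM in control, 69.0 ± 3.15 with IL-1β, 64.6 ± 5.54 with both agents and 43.8 ± 3.26 with butyrate (mean ± SD, n = 4). Its range was 41.3 to 50.2 CPM in control and 64.3 to 71.2 with IL-1β, and 40.9 to 47.0 with butyrate and 57.0 to 68.9 with both, so libraries with and without IL-1β did not overlap. IL-1β called 8 of 21 beta genes (38.1%), all higher, against 11.2% of all genes tested called higher. A log2 fold change above 0 was seen in 19 of 21 (median 0.57, against -0.03 over all genes). Pcdhb3, Pcdhb7 and Pcdhb8 were not called and reached 10 counts only in libraries with IL-1β. Pcdhb4, Pcdhb5, Pcdhb9, Pcdhb10 and Pcdhb12, also not called, reached it without IL-1β in fewer than the 4 libraries of the rule. All of these became members only with libraries of the groups where they were higher. The count above 0 and the median are therefore no test of a rise across the array. The alpha sum was 19.3 ± 2.01 CPM in control and 19.4 ± 1.37 with IL-1β, and edgeR called 0 of the 10 alpha genes, as did DESeq2, with 0 at an unadjusted p under 0.05 with either tool. The gamma sum was 109 ± 5.2 CPM in control, 127 ± 8.89 with IL-1β, 118 ± 4.06 with both and 96.5 ± 8.11 with butyrate. IL-1β called 2 of 20 gamma genes (10%), both higher, a share near that of all genes tested (11.2% higher).

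The 8 beta genes that were called were neighbours. They were Pcdhb15 to Pcdhb22, the last 8 of the array (chromosome 18, 37473540 to 37524479), and none of the 13 members from Pcdhb1 to Pcdhb14 was called. This division was made after the values were seen and is a description. The log2 fold change with IL-1β was from 0.42 to 1.16 (median 0.64) for the last 8, which had a median average level of 2.13 on the log2 CPM scale. For the other 13 it was from -0.11 to 0.85 (median 0.33), 11 of 13 being above 0, at a median average level of -1.02. Pcdhb3, Pcdhb4, Pcdhb5, Pcdhb7, Pcdhb8, Pcdhb9, Pcdhb10 and Pcdhb12 among these 13 would not have passed the rule without libraries with IL-1β. The counts above 0 and the median of the 13 are therefore a description. DESeq2 also called 0 of these 13, and 2 had an unadjusted p under 0.05 with either tool. With butyrate present, IL-1β called 4 of the last 8 (Pcdhb16, Pcdhb17, Pcdhb20 and Pcdhb22), and the log2 fold change was above 0 in all 8 and in 12 of the other 13. Most of these 13 were low, but Pcdhb14, at 6.198 ± 0.918 CPM in control, and Pcdhb13, at 1.605 ± 0.0748 CPM, stood above the called Pcdhb15 at 0.652 ± 0.128 CPM. Their log2 fold changes were 0.37 (SE 0.126, adjusted p = 0.0301) and 0.64 (SE 0.185, adjusted p = 0.0104). Pcdhb11 and Pcdhb1 also stood above Pcdhb15 in control, at 1.631 ± 0.486 and 1.491 ± 0.257 CPM. With IL-1β these stood at 1.541 ± 0.512 and 1.59 ± 0.295 CPM, so not every gene above Pcdhb15 in level rose.

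**Figure D3:**
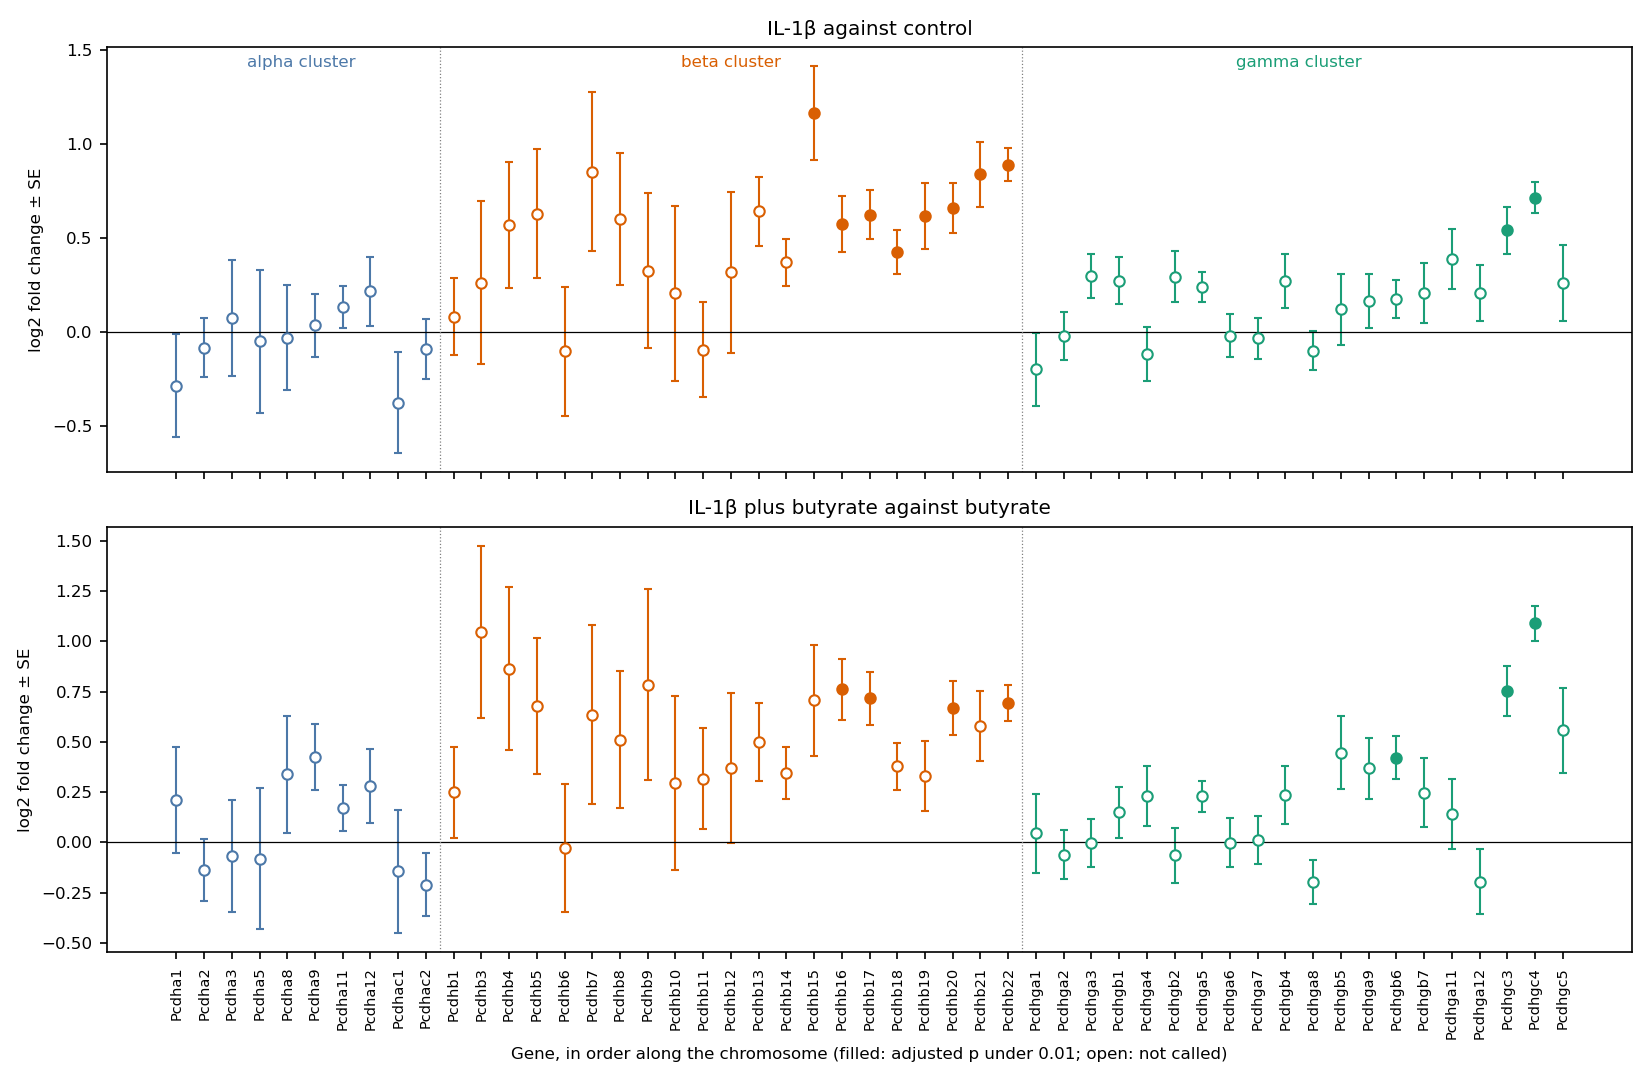
Points give the log2 fold change of IL-1β for each clustered member without butyrate (upper panel) and with it (lower panel), with bars of ± 1 SE, in gene order along the chromosome; filled points had an adjusted p under 0.01. In the upper panel Pcdhb15 to Pcdhb22 lie between 0.42 and 1.16 and are filled, as are Pcdhgc3 and Pcdhgc4, while all alpha genes are open.

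Pcdhb22 was the highest beta gene and had the lowest adjusted p. Control libraries gave 9.19, 9.13, 9.41 and 10.6 CPM, IL-1β libraries 20.2, 16.8, 17.8 and 16.5 CPM, those with both agents 14.7, 18.04, 16.6 and 16.6 CPM, and those with butyrate 10.8, 8.39, 11.7 and 10.1 CPM. Libraries with IL-1β were all above those without it. It rose 1.85-fold with IL-1β (log2 fold change 0.89, SE 0.0898, adjusted p = 1.11e-08) and 1.62-fold in the presence of butyrate (0.69, SE 0.0899, adjusted p = 1e-06). Pcdhb20 gave 3.36, 4.25, 4.06 and 5.22 CPM in control and 5.95, 8.18, 5.34 and 7.18 CPM with IL-1β, and Pcdhb17 gave 4.90, 4.67, 5.49 and 4.92 CPM and 6.26, 8.71, 8.55 and 7.25 CPM. Neither gene had overlapping groups. Pcdhb20 rose by 0.66 (SE 0.131, adjusted p = 0.0003) and Pcdhb17 by 0.62 (SE 0.130, adjusted p = 0.000549), and in the presence of butyrate by 0.67 (adjusted p = 0.000379) and 0.72 (adjusted p = 0.000153).

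The neighbouring Pcdhb21 had 1.17, 1.96, 1.91 and 1.80 CPM in control and 2.64, 2.73, 3.27 and 3.57 CPM with IL-1β, with no overlap. It rose by 0.84 (SE 0.173, adjusted p = 0.00047), and in the presence of butyrate the log2 fold change was 0.58 (adjusted p = 0.0161). Pcdhb21 and Pcdhb22 share part of their exons. Pcdhb15, named after its values were seen because of its low level, had 0.513, 0.750, 0.573 and 0.770 CPM in control and 1.09, 1.46, 1.71 and 1.62 CPM with IL-1β. It rose 2.24-fold (log2 fold change 1.16, SE 0.249, adjusted p = 0.000689), the largest rise among the members. With both agents it stood at 0.907 ± 0.135 CPM, and adding butyrate to IL-1β gave a log2 fold change of -0.70 (adjusted p = 0.0244), between 0.00741 and 0.0642 over 24 alternatives. It was called, at 0.00741, in the fit without IL-1β replicate 1.

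Pcdhb16, Pcdhb18 and Pcdhb19 were called with less margin. Pcdhb16 had 1.91, 2.96, 3.39 and 2.83 CPM in control and 3.26, 4.09, 4.72 and 4.40 CPM with IL-1β, which overlapped (log2 fold change 0.57, SE 0.151, adjusted p = 0.00495, 0.000482 to 0.0249 over 25 alternatives). The call was lost without control replicate 1 or 4 or IL-1β replicate 3 or 4 (adjusted p between 0.0112 and 0.0249), whereas in the presence of butyrate its rise by 0.76 (SE 0.151, adjusted p = 0.000364) was called in all alternatives. Pcdhb18 had 5.51, 5.38, 4.49 and 5.18 CPM in control and 5.84, 6.09, 7.72 and 7.83 CPM with IL-1β (0.42, SE 0.118, adjusted p = 0.00759, 0.00145 to 0.04 over 25 alternatives). It was not called without control replicate 2, 3 or 4 or IL-1β replicate 3 or 4 (adjusted p between 0.0131 and 0.04). Pcdhb19 had 1.82, 2.29, 2.53 and 3.17 CPM in control and 3.26, 4.14, 4.09 and 3.61 CPM with IL-1β (0.62, SE 0.175, adjusted p = 0.0092, 0.000936 to 0.0381 over 25 alternatives). Its call was lost in 14 of 25 alternatives. Among them were the fits without control replicate 1, 2 or 3, IL-1β replicate 2, 3 or 4, combined replicate 1 or 2, or butyrate replicate 2 or 3 (adjusted p between 0.01 and 0.0381).

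In the gamma array, the C-type genes Pcdhgc4 and Pcdhgc3 rose with IL-1β. Pcdhgc4, which is known for a role in the survival of neurons (chromosome 18, 37815079 to 37841873), had 9.75, 8.71, 10.8 and 9.37 CPM in control and 15.2, 15.8, 16.02 and 16.1 CPM with IL-1β. With both agents it had 18.03, 14.4, 16.8 and 17.6 CPM, and with butyrate alone 7.23, 8.53, 7.002 and 8.52 CPM. The libraries with IL-1β lay above all others, and those with butyrate alone lay below control. IL-1β raised it 1.64-fold (log2 fold change 0.71, SE 0.0831, adjusted p = 1.45e-07) and 2.13-fold in the presence of butyrate (1.09, SE 0.0851, adjusted p = 1.03e-10). The change with butyrate alone (-0.29, SE 0.0904) missed the threshold (adjusted p = 0.0144, 0.00693 to 0.0656 over 25 alternatives), and was called without control replicate 2 (adjusted p = 0.0087) or combined replicate 2 (adjusted p = 0.00802). Pcdhgc3 had 4.99, 6.50, 6.93 and 7.49 CPM in control and 9.57, 8.81, 8.86 and 10.4 CPM with IL-1β, without overlap. It rose by 0.54 (SE 0.125, adjusted p = 0.00176) and, with butyrate present, by 0.75 (SE 0.123, adjusted p = 4.07e-05). The third C-type gene, Pcdhgc5, had log2 fold changes of 0.26 and 0.56 and was not called (adjusted p = 0.39 and 0.0617). Part of the Pcdhgc3 exons is covered by the antisense gene BC037039, which had 0 to 13 counts in a library, and none of Pcdhgc4.

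Butyrate lowered 3 other gamma genes, in 1 background each or both. In each background it lowered 2 of 20 gamma genes (10%). This was near the share of all genes tested that were called lower, 11.4% without IL-1β and 11.1% with it. Pcdhga7 had 9.19, 7.34, 8.50 and 7.15 CPM in control, 6.13, 5.02, 4.75 and 6.97 CPM with butyrate, 8.48, 7.50, 7.57 and 7.79 CPM with IL-1β, and 6.33, 5.90, 5.04 and 5.87 CPM with both agents. Libraries with and without butyrate did not overlap in either background. It fell by 0.48 with butyrate alone (SE 0.114, adjusted p = 0.00171, 5.98e-05 to 0.0119 over 25 alternatives) and by 0.44 in the presence of IL-1β (SE 0.113, adjusted p = 0.00423, 0.000521 to 0.0166). These calls were lost without butyrate replicate 2 or 3 (adjusted p = 0.0119 and 0.0105), and without IL-1β replicate 1 or combined replicate 3 (adjusted p = 0.011 and 0.0166), respectively. Pcdhgb6 had 11.8, 10.3, 8.41 and 9.46 CPM in control and 6.98, 7.51, 6.43 and 6.97 CPM with butyrate, and fell by 0.51 (SE 0.107, adjusted p = 0.000511). It was 9.37 ± 1.06 CPM with both agents, a rise by 0.42 over butyrate alone (SE 0.107, adjusted p = 0.0043, 9.7e-05 to 0.0254 over 25 alternatives) that was lost without combined replicate 1 or 4 or butyrate replicate 1, 3 or 4 (adjusted p between 0.0108 and 0.0254). Pcdhga12 had 4.39, 2.87, 3.52 and 3.46 CPM with IL-1β and 2.56, 2.72, 1.88 and 2.26 CPM with both agents. It fell by 0.59 (SE 0.156, adjusted p = 0.005, 0.0011 to 0.0218 over 25 alternatives), and the call was lost without IL-1β replicate 1 or combined replicate 3 or 4 (adjusted p between 0.0122 and 0.0218). Butyrate called 0 of the 21 beta genes in either background (edgeR and DESeq2), with 2 at an unadjusted p under 0.05 without IL-1β in edgeR and 1 with it.

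The sequences of these genes limit how far reads could be assigned. Of all stretches of 50 bases in a gene's transcripts, 48.2% to 66.1% (median 60.1%) were shared with another gene for alpha members and 35.5% to 72.4% (median 45.1%) for gamma members. Beta members shared 0% to 64.2% (median 5.25%), with 11.3% for Pcdhb21, 8.58% for Pcdhb22 and 64.2% for Pcdhb12, so the beta genes rest mostly on reads of their own. For alpha and gamma members, by contrast, how reads in the constant exons were counted is not stated. Pcdhga10, which shares the gamma constant exons, had 0 counts in every library. Pcdha4 and the second gene named Pcdha11 share the alpha constant exons and had 0 to 2 counts in a library. Reads in those exons were thus not counted for each gene of an array. Whether any single alpha or gamma member received such reads was not tested. The member that bears the symbol Pcdha11 in the annotation lies at the place that RefSeq gives to Pcdha10.

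Pcdh1, the highest protocadherin (chromosome 18, 38185914 to 38212053, minus strand), rose where butyrate and IL-1β were combined. It had 122, 118, 118 and 117 CPM in control, 131, 122, 123 and 127 CPM with IL-1β, 129, 125, 117 and 129 CPM with butyrate, and 148, 139, 158 and 152 CPM with both agents. The libraries with both agents were above all others. Compared with IL-1β it was 1.185-fold higher (log2 fold change 0.24, SE 0.0458, adjusted p = 0.000169), and compared with butyrate 1.19-fold (0.26, SE 0.0459, adjusted p = 0.000104). Either agent alone gave 0.09 (adjusted p = 0.19) and 0.07 (adjusted p = 0.253).

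Whether the effect of butyrate depended on IL-1β was tested by the difference between the butyrate effects. edgeR called 0 of 72 members, as did DESeq2, against 0.0968% of all genes (0.043% higher and 0.0538% lower), and 3 had an unadjusted p under 0.05. These were Pcdhgc4 (0.38, SE 0.120, adjusted p = 0.301), Pcdh1 (0.17, SE 0.0650, adjusted p = 0.476) and Cdh8 (-0.14, SE 0.0653, adjusted p = 0.662). No member was therefore shown to respond differently in the presence of the other agent. IL-1β called 9 members in both backgrounds in the same direction and butyrate 3 (Cdh1, Cdh8 and Pcdhga7), and none was called in opposite directions. These were 12.5% and 4.17% of the 72, where 11.4% and 13.5% of all genes tested were called in both backgrounds in the same direction.

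**Figure D4:**
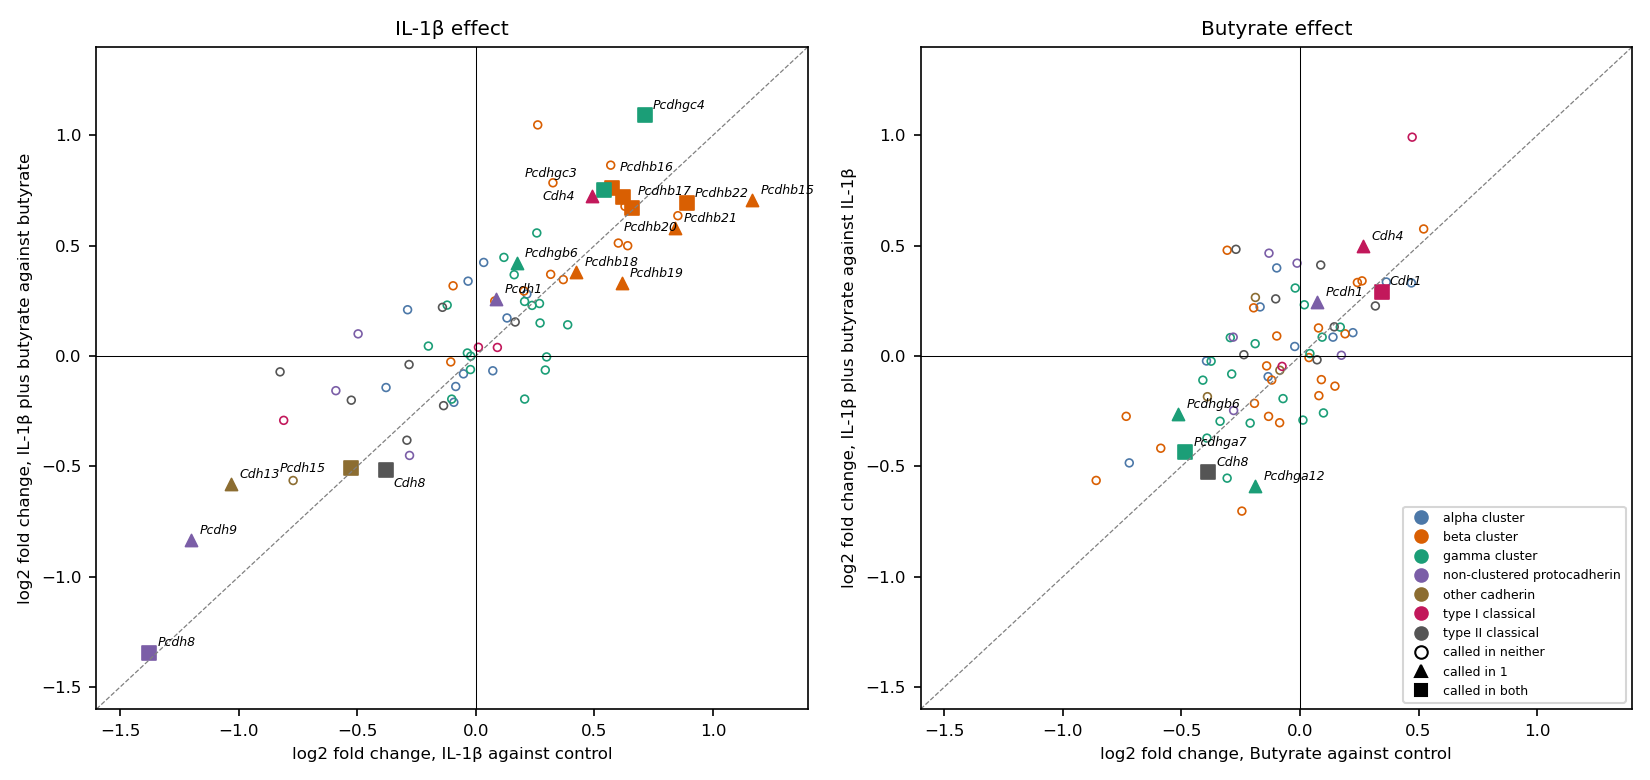
Each symbol is 1 of the 72 tested members, placed by its log2 fold change with IL-1β without (x) and with butyrate (y) on the left, and with butyrate without (x) and with IL-1β (y) on the right; colours mark families, shapes in how many comparisons it was called, and the dashed line marks equal effects. The axes of a panel share no library, and Pcdh8 lies at -1.38 and -1.34, Pcdhgc4 at 0.71 and 1.09, and Cdh8 at -0.39 and -0.53 on the right.

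The partners of these proteins were counted from lists drawn up from general knowledge. Beside these counts stand the shares of all genes, of which IL-1β called 11.2% higher and 6.59% lower (9.92% and 4.86% with butyrate present) and butyrate 8.53% higher and 11.4% lower (8.41% and 11.1% with IL-1β present). Of 11 catenins and cytoplasmic partners, IL-1β raised 4 and lowered none: Ctnna2, the neuronal alpha-catenin (0.68, SE 0.0827, adjusted p = 3.17e-07), Vcl, vinculin (0.64, SE 0.0849, adjusted p = 1.35e-06), Ctnnb1, beta-catenin (0.36, SE 0.0445, adjusted p = 3.38e-07), and Jup. With butyrate present 5 were higher and 1 lower. Of 7 proteases that shed or cut cadherins, IL-1β raised 4 and lowered 2. Adam10, a sheddase of E-cadherin, rose by 0.69 (SE 0.0524, adjusted p = 5.06e-11) and Adam15 by 0.71 (SE 0.0671, adjusted p = 3.05e-09), and Adam9 fell by 0.31 (SE 0.0592, adjusted p = 0.000185). Adam15 also rose by 0.80 with butyrate alone (SE 0.0668, adjusted p = 8.35e-10), the 1 gene of this list that edgeR called there (DESeq2 called 2). Added to IL-1β, butyrate raised Adam15 by 0.54 (SE 0.0617, adjusted p = 1.69e-07) and lowered Ncstn, a subunit of gamma-secretase (-0.21, SE 0.0516, adjusted p = 0.00263).

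Among 13 regulators of the protocadherin clusters, IL-1β called 1, the cohesin subunit Smc3, which fell by 0.19 (SE 0.0485, adjusted p = 0.0039). Butyrate called 4. The cohesin subunits Stag1, Smc1a and Stag2 fell by 0.53 (SE 0.0499, adjusted p = 5.42e-09), 0.31 (SE 0.0451, adjusted p = 5.62e-06) and 0.18 (SE 0.0465, adjusted p = 0.00472), and the DNA methyltransferase Dnmt3b rose by 0.48 (SE 0.128, adjusted p = 0.00474). Of 7 repressors of Cdh1, 3 were tested, and edgeR and DESeq2 called 0 of them in any comparison (1 had an unadjusted p under 0.05 with IL-1β). Zeb1, the highest of these, stood at 21.8 ± 1.03 CPM in control and 21.98 ± 0.971 with butyrate. Of 16 tested genes of the wider cadherin superfamily, IL-1β raised 3 and lowered 1, among them Fat1 (0.67, SE 0.112, adjusted p = 0.000363) and Clstn2 (-0.91, SE 0.161, adjusted p = 8.94e-05). Of 12 other adhesion genes it raised 5 and lowered 1, among them Cadm3 (1.30, SE 0.295, adjusted p = 0.00156) and Cadm1 (-0.46, SE 0.0591, adjusted p = 6.65e-07).

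Some markers of cell types moved with the same conditions. Of all genes tested, IL-1β called 11.2% higher and 6.59% lower. Butyrate alone called 8.53% higher and 11.4% lower, and added to IL-1β 8.41% higher and 11.1% lower. Of 10 beta cell markers, IL-1β lowered 8 and raised 1, and their summed level was 215300 to 238100 CPM in control and 138400 to 180000 CPM with IL-1β. Of 7 macrophage markers it raised 6 and lowered 1, C1qa, and the sum was 118 to 135 CPM in control, 149.8 to 172 with IL-1β, 86.5 to 107 with both agents and 77.2 to 101 with butyrate. The 6 that rose included Ptprc, from 1.90 ± 0.661 to 7.98 ± 1.87 CPM. Of 8 tested endothelial markers IL-1β raised 1, Pecam1, and of 5 tested duct markers 2, Krt7 and Muc1. Of 4 tested acinar markers it raised 1, and Amy2a5 was at 0 in every library except 1 with butyrate. It called 0 of 5 Schwann cell markers (3 at an unadjusted p under 0.05 with edgeR and 2 with DESeq2), whose sum was 12.95 to 17.98 CPM in control and 9.49 to 12.4 with IL-1β. Of 5 alpha cell markers it lowered 1 and of 3 delta cell markers it called 0 with either tool. Butyrate alone raised 3 and lowered 1 of the beta cell markers, lowered 2 of 5 alpha cell markers (Irx1 and Irx2) and 1 of 7 macrophage markers (C1qa), and raised 1 of 3 delta cell markers, Sst (0.55, SE 0.0813, adjusted p = 2.78e-05). The sum of the delta cell markers was 1577 to 1879 CPM in control and 2290 to 2635 with butyrate, and 1588 to 2073 with IL-1β and 2498 to 3023 with both agents, so libraries with and without butyrate did not overlap. Added to IL-1β, butyrate lowered 5 of 7 macrophage markers and 2 of 10 beta cell markers, raised 1 and lowered 2 of the alpha cell markers, and raised 1 of the delta cell markers. The part of these shifts in the changes of the cadherin and protocadherin genes was not tested.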

How the data were processed

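RNA of 16 islet libraries (4 conditions, 4 experiments each) was sequenced from unstranded single-end libraries. Per the labels, reads were demultiplexed with bcl2fastq 2.19.1, checked with FastQC 0.11.7 and MultiQC 1.7, and mapped to GRCm38.p5 (mm10) with STAR 2.5.3a. The values deposited by the authors are raw counts per gene, whole numbers without normalization, in 1 column per library, with 0 columns of other samples. The annotation release, the strand setting and the handling of reads shared between genes are not given in the sources used here. Reads carried no molecular identifiers.

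Symbols, positions and exons were taken from GENCODE M21 (GRCm38), which held 52489 of 52636 identifiers, and 10560 genes had no count. In R 4.3.3, edgeR 4.0.16 filtered the table (filterByExpr over the 4 conditions, 18587 genes left), scaled it by TMM and fitted 1 robust quasi-likelihood model of condition to all 16 libraries. Calls required p under 0.01, as in the study, after Benjamini-Hochberg adjustment over all genes tested. CPM are counts over TMM-scaled library sizes. Between libraries of 1 condition the chi-square per gene was 1.72 to 13.5, so no library was counted as a copy of another. The labels do not say that a replicate number marks 1 experiment across conditions, and libraries with the same number were not taken as pairs (17 of 24 such pairs correlated over 0.1, from 0.0535 to 0.397, and 6 of 72 with different numbers). On simulated counts for butyrate added to IL-1β (18429 genes tested), the test called 94.9% of 99 genes changed 2-fold, all 101 changed 4-fold, and 4 others. The simulation gave every gene the same spread and changed only genes with enough counts. These shares therefore do not hold for members with few counts or for changes under 2-fold.

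Named with values in every library were Cdh1, Cdh2 and up to 20 members in all with a call, at an average log2 CPM of 0 or more and with groups that did not overlap. The members and lists were chosen with earlier results of these data known. Alternatives were DESeq2 1.42.0, other scalings, filters, sample sets and thresholds, a replicate block, and fits without each library in turn.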

Additional observations from a re-analysis of the deposited data

Results flagged for a closer look

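Among 88 groups of 4 libraries looked at for the called members, Cdh1 and Cdh2, 1 held a library far from the others. Pcdhb19 in replicate 1 of the butyrate condition was at 1.66 CPM, whereas the other libraries of that condition were between 2.98 and 3.23 CPM, and the gap was 0.84 of the range (critical value 0.829). By chance about 1 in 20 groups would pass this limit.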

How the results depend on the processing

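Of 37 called pairs of member and comparison, 25 were called under all alternatives, 12 lost the call under at least 1, and 0 changed sign. The calls of Pcdhb19 with IL-1β and of Cdh4 with butyrate added to IL-1β were lost in 14 and 13 of 25 alternatives. Among the members followed singly, another 6 pairs that were not called gained a call under at least 1 alternative. For butyrate in the presence of IL-1β, 12 members were called at an adjusted p under 0.05 in place of 6, and for butyrate alone 7 in place of 4. The replicate block, entered although the numbers were not taken as pairs, gave 7 calls for butyrate alone, and 19 for IL-1β, 8 for butyrate in the presence of IL-1β, 16 for IL-1β in the presence of butyrate and 0 for the difference between the butyrate effects. Among the 22 members followed singly (the 21 called in any comparison, and Cdh2), those that gained a call with it were Cdh4 with IL-1β (adjusted p = 4.62e-06) and with butyrate alone (0.00907), Pcdhgc4 with butyrate alone (0.00838), and Pcdhb21 (0.00363) and Pcdhb18 (0.00625) with IL-1β in the presence of butyrate. Leaving out 1 library at a time gave 10 to 16 calls for IL-1β, 3 to 7 for butyrate in the presence of IL-1β (3 without replicate 3 of the combination), 3 to 6 for butyrate alone, 10 to 13 for IL-1β in the presence of butyrate, and 0 for the difference. For IL-1β in the presence of butyrate, scaling by library size alone gave 12 higher and 2 lower in place of 9 and 3. Fits on only the conditions compared were not run for the difference, which needs all of them. The cause of the lost calls was not tested.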
